A study of Mus musculus with 11 samples.

Results

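The genes described here are 10 core and general markers of pluripotency in mouse embryonic stem cells (ESCs): the transcription factors Pou5f1 (encoding OCT4), Sox2 and Sall4, the chromatin-bound proteins Utf1, Dppa2 and Dppa4, the RNA-binding proteins Lin28a, L1td1 and Dppa5a, and the ligand Gdf3. They were chosen by name, as factors and markers that naive and primed pluripotent cells share, and all 10 were found by symbol among the 54838 Ensembl genes counted on GRCm38. All 10 were also among the 16073 genes with enough reads to test. RNA came from E14 cells, an established mouse ESC line, grown without feeder cells on gelatin in medium with serum replacement and LIF (leukaemia inhibitory factor, which sustains self-renewal). Cells were transfected for 36 h with a control scramble siRNA (3 libraries), with CMTR1 siRNA 1 (4 libraries) or with CMTR1 siRNA 2 (4 libraries). CMTR1 methylates the ribose of the first transcribed nucleotide of mRNA, next to the cap. All groups thus shared a line, a medium and a transfection, and only that line was used. The labels number the libraries within each group without saying which came from separate cultures, and the study's methods speak of 3 biological replicates where the siRNA groups hold 4 libraries, so p-values measure the spread between these libraries, which may be in part technical.

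As background, OCT4 and SOX2 bind DNA side by side at enhancers of genes that keep ESCs undifferentiated, their own genes included, and SALL4 is a zinc-finger partner of both. UTF1 binds chromatin at many of the same genes, while DPPA2 and DPPA4 are neighbouring paralogs whose proteins act as a pair at CpG-rich promoters and are needed for genes of the 2-cell embryo and of the germline. LIN28A blocks maturation of let-7 microRNAs, L1TD1 is an RNA-binding protein derived from a LINE-1 retrotransposon and found with LIN28A, and DPPA5A carries a KH-type RNA-binding domain. GDF3 is a TGF-beta family ligand of the branch that includes Nodal. Factors such as Nanog, Esrrb and Klf4 mark the naive state more narrowly, and are given further on for comparison.

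Since CMTR1 acts on the first transcribed nucleotide, the bases around the annotated start sites are shown for the 5 members that had a start site in the RefSeq table for GRCm38.p6. Lower case letters are the 25 bases before the start, and the capital is the first transcribed base, both as RefSeq places them. The gene spans given further on come from GENCODE M21, which places some starts elsewhere. The spans of Lin28a and Utf1 there cover the whole window shown, and that of Sox2 begins downstream of it.

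Pou5f1, upstream start, chr17:35506007-35506032, plus strand: gctagagggtgggattggggagggaG
Pou5f1, downstream start, chr17:35508782-35508807, plus strand: catgctcgttcgtctggtcaattctG
Sox2, chr3:34649970-34649995, plus strand: tattccctgacagcccccatcacatG
L1td1, chr4:98726729-98726754, plus strand: ctagggaagggaggagtctgcatgaG
Lin28a, chr4:134018816-134018841, minus strand: gtagcagcctcttctccgaaccaccC
Utf1, chr7:139943831-139943856, plus strand: gaggccacgccttggagtgcacgcaC

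The first base was G at 4 of these 6 starts and C at the 2 of Lin28a and Utf1. Over the 32851 start sites of the table, 35.6% began with G, 34.4% with A, 16.3% with C and 13.7% with T. An annotated start need not be the one used in these cells, and the libraries do not mark transcript ends.

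Between 6738478 and 8382318 reads were assigned to genes per library, and levels are given as CPM, read counts scaled to the library total. The 10 members together held 0.289 to 0.321% of a library, with 411 to 5175 reads per gene, so the counting error alone was 1.50 to 4.41% of the mean, against a spread between libraries of one group of 1.04 to 9.02% (coefficient of variation). The targeted gene itself, Cmtr1, gave 21.3, 21.7 and 17.9 CPM with control siRNA, 21.1, 21.3, 16.2 and 18.0 after siRNA 1 and 15.6, 16.8, 16.4 and 19.5 after siRNA 2. The ranges overlapped, and neither siRNA passed the edgeR test for it (log2 fold change −0.088 for siRNA 1, adjusted p = 0.743, and −0.25 for siRNA 2, adjusted p = 0.144). A lower Cmtr1 mRNA level was thus not established with either siRNA, and the groups rest on the labels. In bulk RNA, fewer cells of a type and less RNA per cell cannot be told apart. Of 35 markers of other cell types, 26 had enough reads, and 2 (Cubn lower, Nes higher) changed with siRNA 1 and 5 (Cubn and Col3a1 lower, Nes, Col1a1 and Dcn higher) with siRNA 2. These 2 and 5 of 26 stand against 4.67% and 9.72% of all genes tested. The summed level of the 7 fibroblast markers was 23.3 to 27.8 CPM in control, 24.7 to 28.5 after siRNA 1 and 34.2 to 39.0 after siRNA 2, that of 6 neural markers 151.0 to 153 CPM, 164 to 186 and 159.9 to 192, and that of 8 primitive endoderm markers 148 to 215, 117 to 172 and 127 to 153. Single genes weighed on these sums. In the same order of groups, Cubn alone was at 92.4 to 141, 65.4 to 102 and 75.6 to 93.2 CPM. Another endoderm marker, Dab2, had means of 26.4, 26.1 and 26.2 CPM. Nes was at 57.1 to 64.5, 69.2 to 78.9 and 76.7 to 92.3 CPM. Pax6, also a neural marker, was at 9.40 to 12.3, 12.4 to 16.3 and 7.41 to 9.23 CPM. By the edgeR test Pax6 was lower with siRNA 2 than with siRNA 1. Summed levels of 8 trophoblast markers (17.5 to 18.3 CPM, 16.7 to 21.9 and 15.8 to 18.8) and of 6 mesoderm markers (7.94 to 8.89, 8.47 to 9.50 and 5.85 to 8.76) were low in each group, and none of the 35 markers was at 0 in all libraries. Their part in the results below was not tested.

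Few of the 10 markers passed the test in any comparison, and no change was larger than 0.25 on the log2 scale. With siRNA 1, Dppa5a fell by 0.25 and Pou5f1 by 0.16, and the other 8 did not pass the test (edgeR quasi-likelihood, adjusted p at most 0.05 over all 16073 genes). With siRNA 2, 0 of 10 passed in edgeR, in DESeq2 or in edgeR's exactTest, and 4 (Sox2, Utf1, Dppa2 and Dppa5a) had an unadjusted p under 0.05. Between the siRNAs 1 gene passed, Lin28a, which was higher with siRNA 2 by 0.15. With both siRNAs pooled against control, Dppa5a alone passed. As the background for these counts, 4.67% of all genes tested were called with siRNA 1 (1.97% lower and 2.71% higher), 9.72% with siRNA 2 (3.55% lower and 6.17% higher), 7.44% between the siRNAs (2.96% lower and 4.49% higher with siRNA 2) and 6.91% with both pooled. The 2 of 10 members called with siRNA 1 stand against 4.67%, and the 0 of 10 with siRNA 2 against 9.72%.

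The median log2 fold change of the 10 members was −0.043 with siRNA 1 and 0.0082 with siRNA 2, where the medians of all genes tested were 0.024 and 0.029. Between siRNA 2 and siRNA 1 the members' median was 0.048 and that of all genes 0.0018. Values of a member ran from −0.25 to 0.093 with siRNA 1 and from −0.13 to 0.19 with siRNA 2, that is, from −15.7% to 6.65% and from −8.33% to 14.1% of change. For 3 members the siRNA 1 libraries were separate from control (Pou5f1 and Dppa5a lower, Gdf3 higher), as they were for 15.5% of all genes. With siRNA 2 this was so for 2 members (Sox2 lower, Gdf3 higher) against 19.4% of all genes, between the siRNAs for 0 members against 11.8%, and for both siRNAs pooled for 1 member, Gdf3, against 6.23%. The siRNA comparisons share the 3 control libraries, so they are given side by side and not as independent results.

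**Figure D1:**
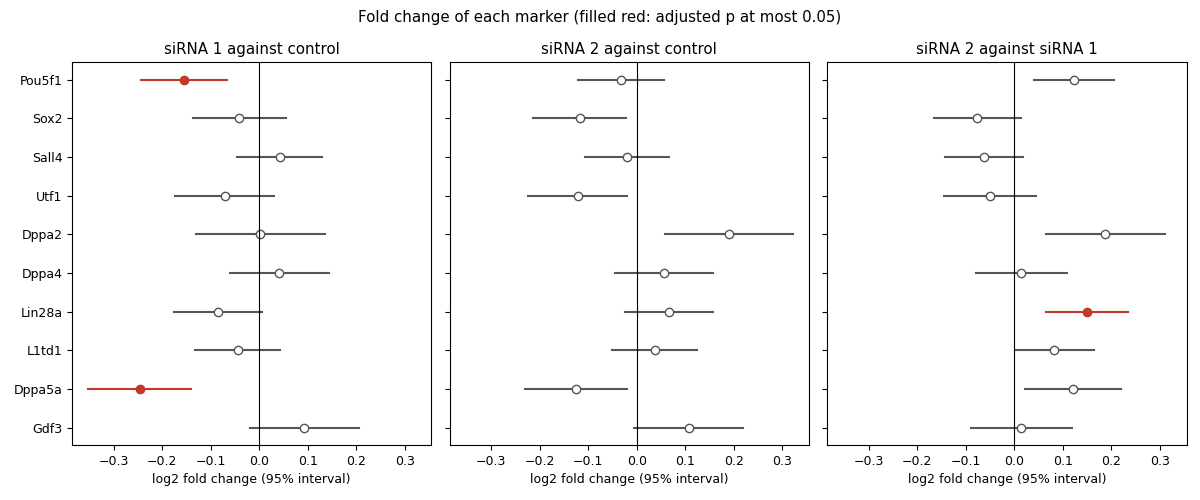
Log2 fold change (x axis) of each of the 10 markers (y axis) in 3 comparisons, from edgeR over 3 control and 4 libraries per siRNA; points are estimates, lines the 95% intervals, and filled red points passed an adjusted p of 0.05. Filled points are Pou5f1 and Dppa5a with siRNA 1 and Lin28a between the siRNAs; with siRNA 2 against control no point is filled.

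Among the core transcription factors, Pou5f1 fell with siRNA 1 and did not pass with siRNA 2, and Sox2 and Sall4 passed with neither. Pou5f1 (ENSMUSG00000024406, chromosome 17, 35506018 to 35510772, plus strand) measured 482, 497 and 473 CPM in control, 419, 440.1, 444 and 434 after siRNA 1 and 507, 485, 436 and 464 after siRNA 2. All 4 siRNA 1 libraries lay below all 3 controls, while the siRNA 2 libraries lay on both sides of them. Means were 484 ± 11.9 CPM (SD, n = 3), 434 ± 11.1 CPM (SD, n = 4) and 473 ± 30.1 CPM (SD, n = 4). The log2 fold change was −0.16 (SE 0.045, 95% interval −0.24 to −0.067, adjusted p = 0.0332) with siRNA 1, and a two-sided exact permutation test gave p = 0.0571, the smallest that 3 against 4 libraries allow. With siRNA 2 it was −0.033 (SE 0.045, 95% interval −0.12 to 0.055, adjusted p = 0.720). The difference between the siRNAs was 0.12 (SE 0.042, 95% interval 0.041 to 0.21, adjusted p = 0.0623), so that an unequal response of Pou5f1 to the siRNAs was not established. The siRNA 1 call was lost with replicate number as a block (adjusted p = 0.0586) and rested on single libraries: without control replicate 1, 2 or 3 the adjusted p was 0.0811, 0.193 and 0.0615, and without siRNA 1 replicate 1, 2 or 4 it was 0.101, 0.0761 and 0.0738. Without siRNA 2 replicate 3, the lowest of its group, the difference between the siRNAs passed (adjusted p = 0.00925). Of the exon bases of Pou5f1, 14.1% overlap a gene on the opposite strand, Gm19553, and how strand was used in counting is not given in the sources used here.

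Sox2 encodes the DNA-binding partner of OCT4 (ENSMUSG00000074637, chromosome 3, 34650405 to 34652461, plus strand, inside the gene Sox2ot of the same strand without sharing exon bases). Its levels were 192, 209 and 199 CPM in control, 185, 184, 203 and 204 after siRNA 1 and 182, 179.8, 187 and 187 after siRNA 2. The siRNA 2 libraries were the most alike of the groups and all lay below the controls, whereas of those of siRNA 1 a pair lay below the controls and a pair within their range. Neither difference passed: log2 fold change −0.12 (SE 0.049, 95% interval −0.21 to −0.022, adjusted p = 0.125) with siRNA 2, at an exact permutation p of 0.0571, and −0.041 with siRNA 1 (adjusted p = 0.738). Sall4 (ENSMUSG00000027547, chromosome 2, 168748332 to 168767943, minus strand) was at 489.8, 516 and 507 CPM in control, 520.1, 532, 505 and 519 after siRNA 1 and 503, 537, 479 and 469.6 after siRNA 2. All groups overlapped, with log2 fold changes of 0.042 (95% interval −0.045 to 0.13, adjusted p = 0.701) and −0.021 (−0.11 to 0.066, adjusted p = 0.835). These intervals reach 0.13 at the upper end and −0.11 at the lower.

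**Figure D2:**
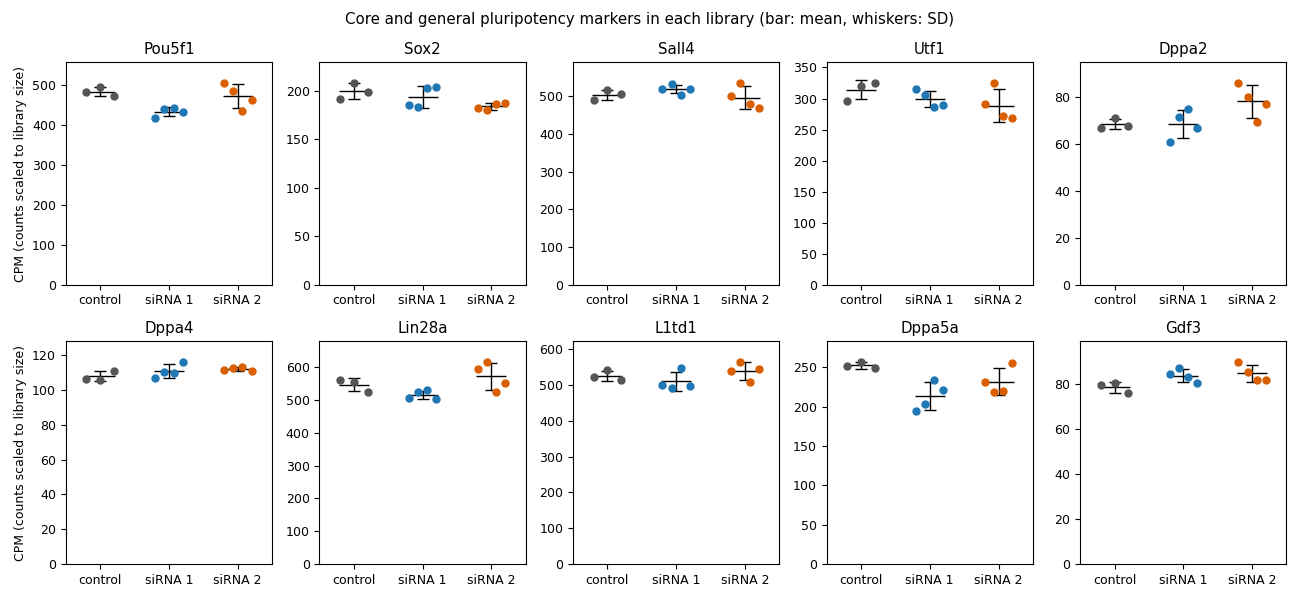
CPM (counts scaled to library size; y axis, from 0) of each marker in each library (points) of control, siRNA 1 and siRNA 2 (x axis), with the mean (bar) and SD (whiskers) over 3, 4 and 4 libraries. The siRNA 1 points of Pou5f1 (419 to 444) and Dppa5a (194 to 234) lie below their controls (473 to 497 and 249 to 258), and for most other markers the groups overlap.

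The ratio of Pou5f1 to Sox2 reads within a library does not depend on scaling to library size. Its log2 value was 1.33, 1.25 and 1.25 in control, 1.18, 1.26, 1.13 and 1.09 after siRNA 1 and 1.47, 1.43, 1.23 and 1.31 after siRNA 2. Group means were 1.28 ± 0.045 (SD, n = 3), 1.16 ± 0.075 (n = 4) and 1.36 ± 0.11 (n = 4). The siRNA 1 and siRNA 2 libraries overlapped only through siRNA 1 replicate 2 and siRNA 2 replicate 3. Two-sided exact permutation tests gave p = 0.171 for siRNA 1 (difference −0.11), p = 0.4 for siRNA 2 (0.083) and p = 0.0571 between the siRNAs (0.20), each at 0.343 or above after Benjamini-Hochberg adjustment over 8 ratio tests. For both siRNAs pooled the difference was −0.016 (exact p = 0.824).

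**Figure D3:**
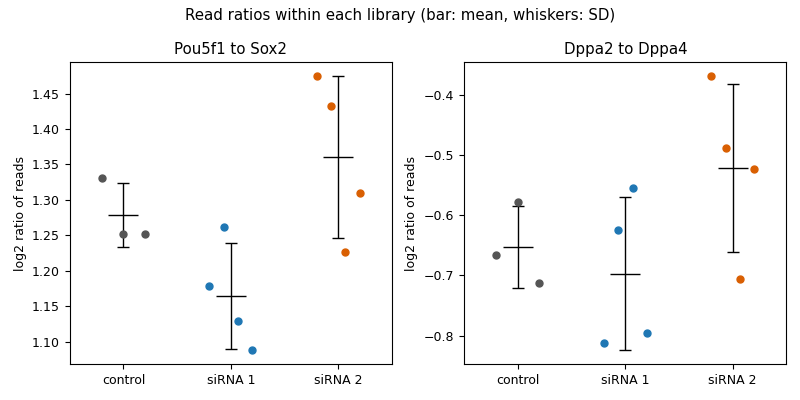
Log2 ratio of reads (y axis) of Pou5f1 to Sox2 and of Dppa2 to Dppa4 in each library (points), by group (x axis), with mean (bar) and SD (whiskers). Mean Pou5f1 to Sox2 ratios were 1.28, 1.16 and 1.36 and mean Dppa2 to Dppa4 ratios −0.65, −0.70 and −0.52; the groups overlap in both panels.

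Among the chromatin-bound markers no gene passed in any comparison, and Dppa2 came nearest. Utf1 (ENSMUSG00000047751, chromosome 7, 139943789 to 139945112, plus strand), a direct OCT4 and SOX2 target in ESCs, was at 297, 320.4 and 326 CPM in control, 315, 306, 287 and 289 after siRNA 1 and 291, 325, 271 and 268 after siRNA 2. The groups overlapped, with siRNA 2 replicate 2 as high as the controls and the other siRNA 2 libraries below them. The log2 fold change was −0.12 (SE 0.052, 95% interval −0.22 to −0.020, adjusted p = 0.139) with siRNA 2 and −0.071 with siRNA 1 (adjusted p = 0.534). Without siRNA 2 replicate 2 the siRNA 2 difference passed, at −0.18 and an adjusted p of 0.0148.

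Dppa2 (ENSMUSG00000072419, chromosome 16, 48303908 to 48319723, plus strand) was at 67.0, 71.0 and 67.8 CPM in control, 61.0, 71.5, 74.9 and 67.1 after siRNA 1 and 86.4, 80.3, 69.6 and 77.2 after siRNA 2. Of the siRNA 2 libraries, 3 were above all controls and siRNA 2 replicate 3 lay among them. Means were 68.6 ± 2.12 CPM (SD, n = 3), 68.6 ± 6.01 CPM (SD, n = 4) and 78.3 ± 6.99 CPM (SD, n = 4). The log2 fold change was 0.19 (SE 0.067, 95% interval 0.059 to 0.32, adjusted p = 0.0630) with siRNA 2 and 0.0023 with siRNA 1 (adjusted p = 0.992), and the siRNAs differed by 0.19 (SE 0.062, 95% interval 0.065 to 0.31, adjusted p = 0.0547). Both siRNA 2 differences were close to the threshold: against control the gene passed without siRNA 2 replicate 3 (adjusted p = 0.0137) or siRNA 1 replicate 1 (0.0465), and against siRNA 1 it passed without siRNA 2 replicate 3 (0.0105) or siRNA 1 replicate 3 (0.0228), with exactTest (0.0442), without a filter (0.0443) and with a filter at 5 CPM (0.0497).

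Dppa4, its neighbour (ENSMUSG00000058550, chromosome 16, 48283733 to 48294237, plus strand), was at 106, 106 and 111 CPM in control, 107, 110.3, 110.0 and 116 after siRNA 1 and 112, 113, 114 and 111 after siRNA 2. The siRNA 2 libraries were close to each other, at the level of the highest control. Log2 fold changes were 0.042 (95% interval −0.060 to 0.14, adjusted p = 0.753) and 0.056 (−0.045 to 0.16, adjusted p = 0.552). The log2 ratio of Dppa2 to Dppa4 reads was −0.67, −0.58 and −0.71 in control, −0.81, −0.62, −0.55 and −0.79 after siRNA 1 and −0.37, −0.49, −0.71 and −0.52 after siRNA 2. These groups overlapped, and the differences were −0.044 with siRNA 1 (exact permutation p = 0.629), 0.13 with siRNA 2 (p = 0.171), 0.18 between the siRNAs (p = 0.143) and 0.043 for both pooled (p = 0.679). Counts of these paralogs carry some uncertainty, since 25.75% of the 75-nt words of Dppa2 and 20.07% of those of Dppa4 also occur in other annotated genes, such as Gm9788 and Gm14058.

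Among the RNA-binding proteins, Dppa5a fell with siRNA 1 under every setting tried, and Lin28a differed between the siRNAs. Dppa5a (ENSMUSG00000060461, chromosome 9, 78367052 to 78368177, minus strand) was at 252, 258 and 249 CPM in control, 194, 203, 234 and 221 after siRNA 1 and 232, 219, 219.7 and 256 after siRNA 2. The siRNA 1 libraries were all below the controls, as were 3 of the 4 siRNA 2 libraries, and siRNA 2 replicate 4 lay among the controls. Means were 253 ± 4.23 CPM (SD, n = 3), 213 ± 17.8 CPM (SD, n = 4) and 232 ± 17.3 CPM (SD, n = 4). With siRNA 1 the log2 fold change was −0.25 (SE 0.054, 95% interval −0.35 to −0.14, adjusted p = 0.00313), with an exact permutation p of 0.0571, and the gene was called under all 19 alternative settings, at adjusted p from 8.9e-05 to 0.0312. With siRNA 2 it was −0.13 (SE 0.054, 95% interval −0.23 to −0.021, adjusted p = 0.138), and it passed without siRNA 2 replicate 4 (−0.18, adjusted p = 0.0286). For both siRNAs pooled it was −0.19 (SE 0.047, 95% interval −0.28 to −0.093, adjusted p = 0.00999), lower in 7 of 8 libraries than every control (exact permutation p = 0.0364), and this call was lost without control replicate 2 (adjusted p = 0.0853). The siRNAs did not differ by the test (0.12, adjusted p = 0.144), except without siRNA 1 replicate 3 (adjusted p = 0.0362). Of the 75-nt words of Dppa5a, 19.45% are shared with near-identical genes, among them Gm6798, Dppa5b and Dppa5c. Reads with more than 1 place were not counted, so its count may be too low.

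Lin28a (ENSMUSG00000050966, chromosome 4, 134003330 to 134018841, minus strand) was at 560.4, 556 and 525 CPM in control, 507, 523, 529.9 and 504 after siRNA 1 and 596, 617, 525 and 553 after siRNA 2. Neither siRNA group was separate from control: siRNA 1 libraries were at or below the lowest control, apart from 1 just above it, and siRNA 2 libraries spread from the lowest control to above the highest. Against control the log2 fold changes were −0.085 (95% interval −0.18 to 0.0065, adjusted p = 0.359) and 0.066 (−0.025 to 0.16, adjusted p = 0.413). Between siRNA 2 and siRNA 1 it was 0.15 (SE 0.043, 95% interval 0.066 to 0.23, adjusted p = 0.0229), with an exact permutation p of 0.0571 where 0.0286 was the smallest possible, although the lowest siRNA 2 library (replicate 3) was below the highest siRNA 1 library. That call was lost without siRNA 1 replicate 1 (adjusted p = 0.0606), 2 (0.0524) or 4 (0.0778) and without siRNA 2 replicate 1 (0.0992) or 2 (0.119).

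L1td1 (ENSMUSG00000087166, chromosome 4, 98726734 to 98738480, plus strand) was at 522, 541 and 515 CPM in control, 501, 492, 548 and 498 after siRNA 1 and 539.5, 566, 507 and 546 after siRNA 2. The groups overlapped, and siRNA 1 replicate 3 stood above the other 3 of its group. Log2 fold changes were −0.045 (95% interval −0.13 to 0.043, adjusted p = 0.680) and 0.037 (−0.050 to 0.12, adjusted p = 0.675), and the siRNAs differed by 0.082 (adjusted p = 0.250).

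Gdf3, the ligand (ENSMUSG00000030117, chromosome 6, 122605403 to 122610087, minus strand), was at 79.4, 80.0 and 75.6 CPM in control, 84.3, 86.7, 83.1 and 80.2 after siRNA 1 and 89.8, 85.1, 81.7 and 81.4 after siRNA 2. Every siRNA library was above every control, by little. The two-sided exact permutation test of both siRNAs pooled gave p = 0.0121, the smallest that 3 against 8 libraries allow, for a log2 fold change of 0.10. Over all genes the difference did not pass (edgeR, adjusted p = 0.270 pooled, 0.435 with siRNA 1 and 0.256 with siRNA 2).

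Levels can be compared between genes only per length, as CPM per kb of merged exon. In control libraries the order was Dppa5a (409 ± 6.83, SD, n = 3), Utf1 (256 ± 12.6), Pou5f1 (215 ± 5.28), L1td1 (166 ± 4.35), Lin28a (137 ± 4.89), Sox2 (97.1 ± 4.09), Sall4 (91.1 ± 2.41), Dppa4 (64.9 ± 1.72), Gdf3 (32.3 ± 0.978) and Dppa2 (28.1 ± 0.867). The median gene tested was at 4.74 CPM per kb, and the members ranked from 45 (Dppa5a) to 1794 (Dppa2) of 16070 genes, so each member was well above the median gene. In control the ranges of neighbours in this order did not overlap. With siRNA 1 the order was the same, but Sox2 (94.3 ± 5.46, n = 4) and Sall4 (93.8 ± 1.99) overlapped. With siRNA 2 Sall4 (89.8 ± 5.42) and Sox2 (89.4 ± 1.71) changed places and overlapped, and so did the ranges of Utf1 and Pou5f1 and of Gdf3 and Dppa2.

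The library with the lowest level differed from member to member. In the siRNA 2 group, replicate 3 had the lowest level of Pou5f1, Dppa2, Lin28a and L1td1, replicate 4 that of Sall4, Utf1, Dppa4 and Gdf3, and replicate 2 that of Sox2 and Dppa5a. The 10 levels summed to 3047 to 3154 CPM in control, to 2893 to 3019 after siRNA 1 and to 2889.7 to 3207 after siRNA 2. The genes outside the list whose centred log2 CPM profile over the 11 libraries was nearest to one of 9 members, among 9114 protein-coding genes of at least 10 CPM, were Ran for Pou5f1 (root mean square difference 0.034), Eprs for Sox2 (0.038), Sec31a for Sall4 (0.024), Ppard for Utf1 (0.043), Cpox for Dppa2 (0.048), Dnmt3a for Lin28a (0.026), Hspa4 for L1td1 (0.025), Dnajc21 for Dppa5a (0.037) and Cdk12 for Gdf3 (0.032). No gene named here was nearest to 2 members. These likenesses are descriptions over the same libraries, with their depth in common.

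For comparison, other genes of the pluripotency network were read from the same fit. They were listed from general knowledge, with earlier results of these data known, so the list is not independent of them. Of 44 such genes, 18 fell and 1 rose with siRNA 1 and 16 fell and 3 rose with siRNA 2, with medians of −0.15 and −0.11 against 0.024 and 0.029 for all genes tested. Over all genes tested, 1.97% fell and 2.71% rose with siRNA 1, and 3.55% fell and 6.17% rose with siRNA 2. With both siRNAs 12 of the 44 fell, which are transcription factors of the naive state (Nanog, Esrrb, Klf2, Klf4, Tfcp2l1, Tbx3, Zfp42, Nr0b1), other factors of ESCs (Zfp296 and the cell cycle factor Mybl2), the growth factor Fgf4 and the threonine dehydrogenase Tdh. With both 1 rose, Lef1, an effector of Wnt signalling. Nanog was at 76.3, 92.3 and 88.4 CPM in control, 49.7, 49.1, 69.7 and 62.8 after siRNA 1 and 47.3, 53.8, 67.9 and 66.1 after siRNA 2. The siRNA libraries were all below the controls, and log2 fold changes were −0.57 (SE 0.091, 95% interval −0.74 to −0.39, adjusted p = 5.44e-05) for siRNA 1 and −0.54 (SE 0.090, 95% interval −0.72 to −0.36, adjusted p = 5.04e-05) for siRNA 2. Fgf4, which OCT4 and SOX2 are known to drive together from its enhancer, was at 114, 121 and 119 CPM in control, 76.0, 77.3, 88.6 and 87.4 after siRNA 1 and 79.0, 88.5, 88.4 and 94.8 after siRNA 2, and fell by 0.52 and 0.43 on the log2 scale (adjusted p = 3.17e-07 and 2.9e-06), with no overlap with control.

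The counts by group stand against the same shares of all genes, 1.97% lower with siRNA 1 and 3.55% with siRNA 2. By group, 11 of 18 naive-state and accessory factors fell with siRNA 1 and 12 with siRNA 2, and 0 rose. Of 17 known OCT4 and SOX2 targets and signals, 7 fell with siRNA 1, and 4 fell and 1 rose with siRNA 2. Of 9 formative and primed markers, 1 rose with siRNA 1 (Lef1) and 2 with siRNA 2 (Lef1 and the POU factor Pou3f1), and none fell. Between the siRNAs 7 of the 44 differed, against 7.44% of all genes tested: Esrrb was lower with siRNA 2, by 0.21, and Lefty1, Lefty2, Spp1, Eras, Dnmt3l and Rif1 were higher. Some of the calls named rested on the method or on single libraries. With siRNA 1, Tfcp2l1 was lost with DESeq2 (adjusted p = 0.243) and without control replicate 2 or 3 (adjusted p = 0.111 and 0.0974) or siRNA 1 replicate 1 or 2 (0.0663 and 0.0631), Nr0b1 without the same libraries (0.111, 0.0876, 0.0769 and 0.0726), Zfp296 without control replicate 2 or 3 (0.0763 and 0.0889), Tbx3 without control replicate 2 (0.0914) and Mybl2 without control replicate 3 (0.0888). Each of these calls with siRNA 1 stood with replicate number as a block in edgeR. There the adjusted p was 1.54e-06 for Tfcp2l1, 8.09e-04 for Nr0b1, 0.0195 for Zfp296, 4.82e-04 for Tbx3 and 0.00120 for Mybl2. With siRNA 2, Zfp296 was lost with DESeq2 (0.0616), without a filter (0.0635), with the replicate block (0.0909) and without control replicate 2 or 3 (0.167 and 0.224) or siRNA 2 replicate 1, 3 or 4 (0.0512, 0.0729 and 0.107), and Pou3f1 with DESeq2 (0.0826) and without control replicate 2 or 3 (0.130 and 0.0670) or siRNA 2 replicate 1 or 2 (0.0618 and 0.0954). The count of the 44 called with siRNA 1 dropped from 19 to 12 without control replicate 2, and that between the siRNAs from 7 to 3 without siRNA 1 replicate 2 and to 4 without siRNA 2 replicate 2. Of the 7 genes that differed between the siRNAs, Lefty2 and Spp1 were called under all 19 alternative settings, Lefty1 and Rif1 under 16, Eras under 14 and Dnmt3l under 5. With DESeq2 the adjusted p was 0.183 for Lefty1 and 0.0783 for Eras. Lefty1 was lost without siRNA 1 replicate 2 (0.108) or siRNA 2 replicate 3 (0.0552), Eras without siRNA 1 replicate 1 or 2 (0.0619 and 0.0981) or siRNA 2 replicate 2 or 4 (0.0593 and 0.0705), and Rif1 without siRNA 1 replicate 1 or 2 (0.0930 and 0.0734) or siRNA 2 replicate 4 (0.118). Dnmt3l was lost without any 1 of the 3 controls, of the 4 siRNA 1 libraries or of siRNA 2 replicates 1 and 2 (up to 0.159, without siRNA 2 replicate 1), and also with TMM factors (0.0635), without a filter (0.0870), with 2 groups only (0.0659), with the replicate block (0.0614) and with library size without the most abundant gene (0.0554). The Esrrb difference between the siRNAs was lost with DESeq2 (0.0634) and without siRNA 1 replicate 2, 3 or 4 (0.0601, 0.119 and 0.0543) or siRNA 2 replicate 1 or 2 (0.118 and 0.123).

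**Figure D4:**
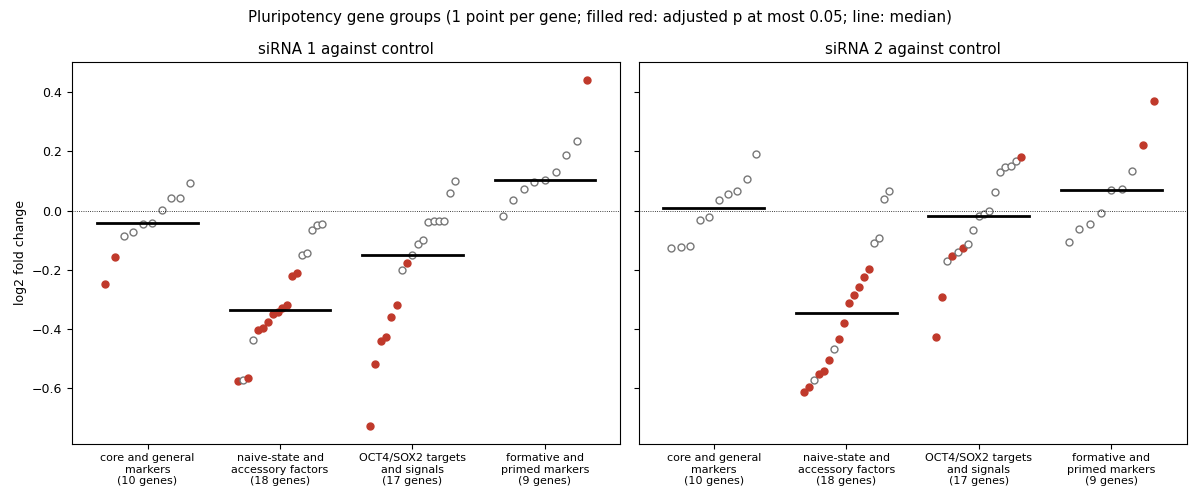
Log2 fold change (y axis) of each gene (points, 1 per gene) with siRNA 1 (left) and siRNA 2 (right) against control, for the 10 core and general markers and 3 groups of the wider list (x axis); filled red points passed an adjusted p of 0.05 and lines are medians. The medians of the core and general markers are −0.043 and 0.0082, and those of the 18 naive-state and accessory factors −0.34 and −0.35. All lists were drawn up with earlier results of these data known.

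Paralogs of the members were tested where they had enough reads, 11 of 12. With siRNA 1, 1 rose, the SOX factor Sox21, and with siRNA 2, Pou3f1 and Sall3 rose while Sall1 and Pou2f1 (encoding OCT1) fell. These 1 and 4 of 11 stand against 4.67% and 9.72% of all genes tested. Sox21 was at 10.5, 10.2 and 9.69 CPM in control, 14.7, 16.1, 14.7 and 12.3 after siRNA 1 and 5.82, 10.1, 7.41 and 9.51 after siRNA 2. All siRNA 1 libraries were above the controls and all siRNA 2 libraries below the siRNA 1 libraries, with log2 fold changes of 0.51 (SE 0.14, 95% interval 0.24 to 0.77, adjusted p = 0.0188) for siRNA 1, −0.29 (SE 0.15, 95% interval −0.58 to 0.0042, adjusted p = 0.238) for siRNA 2 and −0.80 (SE 0.13, 95% interval −1.05 to −0.54, adjusted p = 5.15e-05) between them. The siRNA 1 call was lost with DESeq2 (adjusted p = 0.0620) and without control replicate 2 or 3 (adjusted p = 0.0771 and 0.0915) or siRNA 1 replicate 2 (0.0939). With siRNA 2 the log2 fold changes were 0.34 for Sall3 (adjusted p = 0.00871), 0.22 for Pou3f1 (0.0169), −0.20 for Sall1 (0.00891) and −0.13 for Pou2f1 (0.0445). The count of paralogs called with siRNA 2 dropped from 4 to 0 without control replicate 3, and to 2 without control replicate 2 or without siRNA 2 replicate 1 or 4. Sall3 was lost without control replicate 3 (0.0766), and Sall1 without control replicate 3 (0.0714) or siRNA 2 replicate 4 (0.0533). Pou2f1 was called with siRNA 2 under 8 of 19 alternative settings. It was lost without a filter (0.0890), with 2 groups only (0.0645), with the replicate block (0.0852) and without any 1 library other than siRNA 1 replicate 1 or 3 or siRNA 2 replicate 3, with adjusted p up to 0.129 (without control replicate 1).

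Genes known to need DPPA2 and DPPA4 were read beside those 2 factors. Of 9 such genes, 6 had enough reads (Tcstv1, Tcstv3 and Duxf3 did not). With siRNA 1, 0 of 6 changed in edgeR, and 0 had an unadjusted p under 0.05. With siRNA 2, 4 rose: Zscan4d and Zscan4f, zinc-finger genes of the 2-cell embryo, and Mael and Syce1, germline genes of transposon control and of chromosome pairing in meiosis. These 4 of 6 stand against 6.17% of all genes tested that rose with siRNA 2. All 6 had an unadjusted p under 0.05 in edgeR with that siRNA. Mael was at 18.7, 21.5 and 21.9 CPM in control, 15.4, 16.7, 21.7 and 19.2 after siRNA 1 and 36.5, 32.7, 25.1 and 32.6 after siRNA 2, and Syce1 at 13.6, 12.6 and 12.7, 13.5, 16.3, 14.1 and 14.2 and 19.9, 19.8, 20.5 and 20.0. For both genes all siRNA 2 libraries were above all others. Log2 fold changes with siRNA 2 were 0.62 (SE 0.10, 95% interval 0.41 to 0.82, adjusted p = 6e-05) for Mael and 0.63 (SE 0.10, 95% interval 0.43 to 0.83, adjusted p = 4.33e-05) for Syce1, and the siRNAs differed by 0.79 (adjusted p = 3.07e-07) and 0.46 (adjusted p = 0.00110).

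Zscan4d was at 7.11, 5.55 and 5.52 CPM in control, 5.79, 7.35, 7.00 and 4.68 after siRNA 1 and 11.1, 10.3, 10.5 and 9.51 after siRNA 2. Its siRNA 2 libraries were again above all others, by 0.77 (SE 0.15, 95% interval 0.46 to 1.07, adjusted p = 6.71e-04) against control. Zscan4f was at 3.17, 2.96 and 2.15 CPM, 4.60, 2.74, 3.83 and 2.41 and 5.97, 3.94, 4.18 and 5.19, with 0.78 (SE 0.23, 95% interval 0.34 to 1.23, adjusted p = 0.0210), a call lost with DESeq2 (adjusted p = 0.0743) and without control replicate 2 or 3 (adjusted p = 0.0534 and 0.142) or siRNA 2 replicate 1 or 4 (0.0852 and 0.0503). Between the siRNAs 4 of 6 were higher with siRNA 2, Mael, Syce1, Zscan4d and Zscan4c, the last of which was lost with DESeq2 (0.0617) and without siRNA 1 replicate 1 or 4 (0.0573 and 0.0781) or siRNA 2 replicate 4 (0.0587). Over all genes tested, 4.49% were higher with siRNA 2 than with siRNA 1. The Zscan4 genes are near-identical copies at few reads each (16 to 86 for Zscan4d and Zscan4f). Reads that fit more than 1 copy were not counted, so these levels may be too low by an unknown amount. Dppa2 itself stood at 0.19 with siRNA 2 (adjusted p = 0.0630) and Dppa4 at 0.056 (0.552), and whether their levels bear on these 4 genes was not tested.

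**Figure D5:**
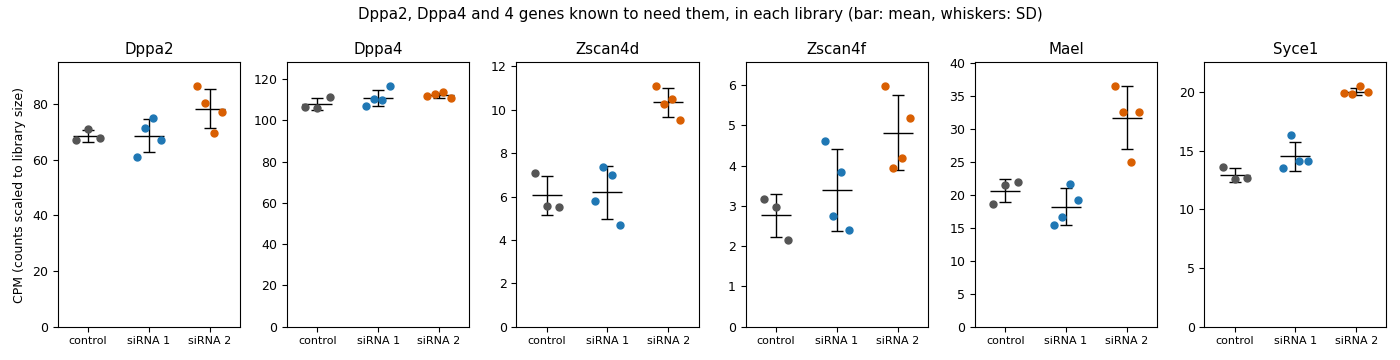
CPM (counts scaled to library size, y axes from 0, each panel on its own scale) of Dppa2, Dppa4 and 4 genes known to need them in each library (points) by group (x axes), with mean (bar) and SD (whiskers). The 4 shown are those called with siRNA 2. The siRNA 2 points of Mael (25.1 to 36.5) and Syce1 (19.8 to 20.5) lie above all other points of their panels, and those of Dppa4 overlap the other groups.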

How the data were processed

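The authors deposited counts, a whole number of reads per Ensembl gene for each of 11 libraries. Per the labels and methods, total RNA was depleted of rRNA, made into directional libraries, trimmed with Cutadapt, aligned to GRCm38/mm10 by STAR, and counted by featureCounts once Picard had removed PCR duplicates. The files of 10 libraries close with totals in the layout of HTSeq, which were set aside from the gene counts. By these totals, 44.3% of the reads listed for siRNA 2 replicate 3 fell in no counted feature. The share was 39.9% and 39.3% in siRNA 2 replicates 1 and 2, and replicate 4 has no totals. In control it was 41.2 to 43.2%, and after siRNA 1 41.0 to 43.4%. Whether this bears on the calls that turn on siRNA 2 replicate 3 was not tested. Duplicate removal without molecular identifiers can lower counts of high genes, and reads with several places were not counted, which touches genes with near copies.

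Symbols came from GENCODE M21 (54809 of 54838 identifiers). Genes over 1 CPM in at least 4 libraries were tested with edgeR 4.0.16 (R 4.3.3, quasi-likelihood, 3 groups, scaled by total counts, Benjamini-Hochberg over 16073 genes, call at 0.05). Intervals are the estimate ± 1.96 SE. Single values were also compared by two-sided exact permutation tests. Counting errors cover sampling of reads only. On simulated counts of 16073 genes for siRNA 1 against control, with 200 changed, 160 were called, 10 of them unchanged, and 82 of 100 2-fold changes were recovered. Of 100 changes by the square root of 2, 68 were recovered. Changes as small as those of the members were not simulated. Alternatives were TMM, DESeq2 1.42.0, exactTest, no filter, a 5 CPM filter, 2 groups only, replicate number as a block, library size without the most abundant gene, and each library left out. Counts of the paralog and DPPA lists under these were added after the data were seen. The members and gene lists were chosen with earlier results of these data known. By rule, all members are named, Nanog and those of the 44 called with both siRNAs, paralogs and DPPA2 and DPPA4 genes called, the gene of nearest profile (that for Dppa4 is not reported here) and Cmtr1. The 6 of the 44 higher with siRNA 2 than siRNA 1, and marker genes of other cells, were named after their values were seen. No 2 libraries of a group were duplicates: their counts differed by 1.29 to 2.82 times the sampling variance (chi-square per degree of freedom, 15 pairs).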

Additional observations from a re-analysis of the deposited data

Results flagged for a closer look

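In 84 groups of 4 libraries screened, 1 held a library far from the others: L1td1 with siRNA 1, where replicate 3 (548 CPM) stood above the other 3 (492 to 501 CPM), a gap of 0.839 of the range. Chance alone sets apart about 1 in 20 such groups.

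Of 40 named genes, 14 responded unequally to the siRNAs by the test of siRNA 2 against siRNA 1 (edgeR, adjusted p at most 0.05). Many of the 40 were named because they had been called, some of them in this same comparison. The count of 14 is thus set in part by that choice. Over all genes tested, 7.44% were called in that comparison. The effect of siRNA 2 less that of siRNA 1, on the log2 scale, was 0.15 for Lin28a, −0.208 for Esrrb, −0.795 for Sox21, −0.124 for Pou2f1, 0.725 for Zscan4d, 0.592 for Zscan4c, 0.792 for Mael, 0.459 for Syce1, 0.293 for Lefty1, 0.559 for Lefty2, 0.47 for Spp1, 0.407 for Eras, 0.123 for Dnmt3l and 0.163 for Rif1. The Pou2f1 difference was called under 7 of 19 alternative settings: it was lost without a filter (adjusted p = 0.0866), with 2 groups only (0.0647), with the replicate block (0.0616) and without any 1 library other than siRNA 1 replicate 3 or siRNA 2 replicate 3 (up to 0.181, without siRNA 1 replicate 2). Lin28a is the only one of these that belongs to the 10 core and general markers.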

How the results depend on the processing

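Of 740 values of the 10 members under alternatives, 691 kept their direction and side of the threshold, 24 reversed in sign, 13 were no longer past the threshold and 12 newly passed it; the cause was not tested. Members called stayed at 2 with siRNA 1 and 0 with siRNA 2 except that with replicate number as a block each count was 1 (Pou5f1 lost at −0.15, adjusted p = 0.0586, and Dppa5a gained at −0.16, adjusted p = 0.0455) and that leaving out single libraries gave 1 to 2 and 0 to 1. Between the siRNAs 2 were called with exactTest, without a filter and with the 5 CPM filter (Dppa2 in addition), and 0 to 3 without single libraries; pooled, 0 to 1. Of the 44 other genes, 4 were called between the siRNAs with DESeq2, and without single libraries 12 to 19 with siRNA 1 and 3 to 8 between the siRNAs. Values near 0 changed sign: Dppa2 with siRNA 1 was −0.0223 with DESeq2 and −0.0178 with TMM, Sall4 pooled −0.0157 and −0.0117, and Lin28a pooled 0.0046 with the block. Without single libraries, Dppa2 with siRNA 1 ran from −0.0415 to 0.0521, Pou5f1 and Sall4 with siRNA 2 from −0.0672 to 0.0036 and from −0.0603 to 0.006, Dppa4 and Gdf3 between the siRNAs from −0.0011 to 0.0383 and from −0.0148 to 0.0334, and, pooled, L1td1 from −0.0219 to 0.0175, Lin28a from −0.0385 to 0.0104, Sall4 from −0.0099 to 0.0277 and the Pou5f1 to Sox2 ratio from −0.0461 to 0.0105. Over all genes tested, same-numbered libraries of different groups did not deviate together. Their mean r was 0.0107 (from −0.078 to 0.0835, 10 pairs), against −0.00358 for 30 other pairs. Of 11 libraries, 4 correlated best with their own number, and the numbers were not taken to pair them. A correlation over all genes cannot exclude a pattern shared by some of them. Nanog was higher in replicates 3 and 4 than in 1 and 2 in both siRNA groups. With the block its edgeR adjusted p with siRNA 1 was 4.62e-08. Tfcp2l1 split likewise, while Pou5f1 was lowest in replicate 1 after siRNA 1 and in replicate 3 after siRNA 2. The block changed no call among the members other than those of Pou5f1 and Dppa5a given above. Depth limits Dppa2 and Gdf3 most, at a counting error near 4% per library. Scaling moved the median of all genes by under 0.03.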
